A study of Rattus norvegicus with 20 samples.

Results

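The core circadian clock loop was followed in isolated renal vasculature through 9 genes, Bmal1, Clock, Npas2, Per1, Per2, Per3, Cry1, Cry2 and Ciart. Members were found by gene symbol in the platform annotation. All 9 were measured, each by 1 transcript, among 18511 transcripts of 18166 genes that carry 1 symbol. The members were chosen on values seen in these data, namely the P180 intensities of MatSep against control rats and of single arrays, so that difference, and the difference between the ages that contains it, are given for the members as a description without a test.

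RNA came from renal vessels of male Wistar Kyoto rats, with 1 RaGene2.0_st array for each of 20 rats. The groups were MatSep at P180, control at P180, MatSep at P10 and control at P10, with 5 arrays each. MatSep, or maternal separation, models stress in early life. Pups were taken from the dam for a few hours each day, always at the same hour, through a period of early life that includes P10. Control litters were left undisturbed per the methods, while the labels call the controls littermates. The hour at which vessels were collected and the litter of each rat are not given in the sources used here. The kidney was grated on a sieve to free the vessels, and the sieve had finer pores for neonates than for adults, so age and preparation cannot be told apart.

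In the mammalian clock, BMAL1 pairs with CLOCK or its paralogue NPAS2 and activates genes that carry E-boxes in their promoters. The PER and CRY proteins made from such genes return to the nucleus and repress this pair, and CIART, known from mouse as CHRONO, is a further repressor of it. A second loop acts through retinoic acid related orphan receptor elements (ROREs), at which the REV-ERB receptors repress and the ROR receptors activate Bmal1, and the D-box factors DBP and TEF add another arm. The loop runs in most cells, vascular wall and kidney included, with the activator genes and the Per genes peaking at roughly opposite times of day.

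The promoters of Ciart and Bmal1, the members with the largest difference at P180 in either direction, are shown with that of Per2, because they carry the motifs by which the loop is wired. Windows from 250 bases before to 50 bases after the transcription start were read from RefSeq (GRCr8), in which 8 of the 9 members matched. Cry1 did not. Motifs were searched on both strands, and capitals mark matches to the E-box CACGTG, the E-prime box CACGTT and its reverse complement, the D-box TTANGTAA and the RORE core TAGGTCA, none of which overlapped another.
Ciart, chr2:186112197-186112496, minus strand: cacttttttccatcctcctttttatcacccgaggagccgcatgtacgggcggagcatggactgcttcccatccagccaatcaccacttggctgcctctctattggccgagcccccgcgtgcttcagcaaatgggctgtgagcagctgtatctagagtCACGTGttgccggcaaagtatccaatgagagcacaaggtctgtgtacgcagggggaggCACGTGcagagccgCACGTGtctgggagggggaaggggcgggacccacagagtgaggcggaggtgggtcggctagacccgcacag
Per2, chr9:99496944-99497243, minus strand: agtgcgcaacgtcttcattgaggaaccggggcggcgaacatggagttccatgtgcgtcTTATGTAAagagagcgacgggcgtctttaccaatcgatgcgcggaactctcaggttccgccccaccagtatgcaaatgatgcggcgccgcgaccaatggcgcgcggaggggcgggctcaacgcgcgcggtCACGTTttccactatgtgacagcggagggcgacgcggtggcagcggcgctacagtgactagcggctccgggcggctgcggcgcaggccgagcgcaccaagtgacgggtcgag
Bmal1, chr1:176766078-176766377, plus strand: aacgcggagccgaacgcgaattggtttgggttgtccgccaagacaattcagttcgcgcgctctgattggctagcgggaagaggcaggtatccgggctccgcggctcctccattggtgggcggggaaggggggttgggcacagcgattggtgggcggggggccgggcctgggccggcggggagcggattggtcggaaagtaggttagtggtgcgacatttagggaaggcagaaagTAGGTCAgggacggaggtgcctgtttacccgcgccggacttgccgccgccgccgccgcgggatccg

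The Ciart window held 3 E-boxes, whose first bases lie at -93, -35 and -21 from the start. At least 1 E-box was found in 6.42% of 33469 promoter windows and 3 or more in 0.0568%. The Per2 window held an E-prime box at -62 and a D-box at -192, motifs present in 4.83% and 2.24% of windows. The Bmal1 window held a RORE core at -16, which 2.63% of windows share. Of the other members, Cry2 held an E-prime box at -212, and none of these letters, nor the cAMP response element TGACGTCA (1.83% of windows), occurred in the windows of Clock, Npas2, Per1 and Per3. A match describes the letters only, and an absence holds only for these letters in these windows. Sites farther away or at other starts were not searched.

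The median log2 intensity of the 20 arrays was 6.00 to 6.18, and no pair of arrays held identical values. Markers of the labelled tissue were present, as were those of other kidney cells. The mean log2 intensity of 6 measured endothelial markers was 9.46 to 10.27 over the arrays, and that of 4 smooth muscle markers was 9.34 to 12.06. That of 8 tubule markers was 11.61 to 12.09 and that of 2 podocyte markers was 7.99 to 8.99. One array stands apart in the clock genes, P180 control replicate 4. It was outlying among the P180 controls by Dixon's criterion in 4 of the 9 members. Over all transcripts it was so in 1.58%, and the other arrays, each in its own group, in 0.438% to 3.34%. The members were chosen with these arrays seen, so the count is a description. The P180 differences of the members are given with and without replicate 4. Its label cannot be checked from these data, since the study targets no gene, so it is called by its label throughout.

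As a description, at P180 the mean of Bmal1 was lower and that of Ciart higher in MatSep rats than in controls. The hour of collection is not given, so in rhythmic genes treatment and hour cannot be told apart. The mean differences of the other 7 members were negative for the activator genes Npas2 and Clock and positive for Per1, Per2, Per3, Cry1 and Cry2. Bmal1, the shared partner of both activator pairs, had log2 intensities of 7.76, 7.90, 8.19, 7.72 and 7.96 in MatSep rats, against 9.40, 8.94, 8.97, 8.04 and 8.83 in controls. All MatSep arrays lay below 4 of the 5 controls, and only control replicate 4 was inside the MatSep range. The mean was 7.91 ± 0.19 in MatSep rats and 8.84 ± 0.49 in controls (SD, n = 5 each), a log2 difference of -0.93 ± 0.16 (SE), or 1.90-fold lower.

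Npas2, which can stand in for Clock in the activator pair, had values of 7.88, 7.82, 8.18, 7.77 and 8.16 in MatSep rats, against 9.13, 8.82, 8.74, 8.04 and 8.61 in controls. The log2 difference was -0.71 ± 0.14. The pattern of the arrays repeated that of Bmal1, replicate 4 of the controls included. Clock itself ran from 10.17 to 10.48 (median 10.31) in MatSep rats and from 10.20 to 10.68 (median 10.58) in controls, and its difference of -0.20 ± 0.08 was the smallest of the 3 activator genes.

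Ciart showed the largest difference of the 9. Its log2 intensities were 8.12, 7.98, 7.50, 8.40 and 8.08 in MatSep rats, against 5.49, 5.75, 5.69, 7.76 and 6.62 in controls. MatSep arrays filled a narrow high band, while the controls spread over 2.26 log2 units with replicate 4 in the MatSep band and replicate 5 between. The means were 8.01 ± 0.33 in MatSep rats and 6.26 ± 0.94 in controls, a log2 difference of 1.75 ± 0.30, or 3.37-fold higher.

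The 3 Per genes, which encode the PER arm of the repressor complex, were each higher on average in MatSep rats. Per2 had values of 9.07, 9.06, 8.93, 9.05 and 8.83 in MatSep rats, against 7.89, 7.93, 8.19, 9.13 and 8.20 in controls. The MatSep arrays varied by 0.24 log2 units, and the only control in their neighbourhood, replicate 4, was above all of them. Per1, which also responds to glucocorticoids, had values of 9.72, 9.57, 9.48, 9.39 and 8.52 in MatSep rats, against 7.57, 8.47, 8.23, 9.63 and 8.29 in controls. MatSep replicate 5 was nearer to the controls than to the other MatSep arrays. Per3 had values of 8.86, 8.96, 8.98, 9.15 and 9.04 in MatSep rats, against 8.21, 8.43, 8.26, 9.22 and 8.43 in controls. Log2 differences were 0.72 ± 0.19 for Per2, 0.90 ± 0.26 for Per1 and 0.49 ± 0.15 for Per3.

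The cryptochromes, partners of the PER proteins, differed less. Cry2 ran from 9.07 to 9.28 (median 9.21) in MatSep rats and from 8.86 to 9.10 (median 8.88) in controls, a log2 difference of 0.26 ± 0.07. Cry1 ran from 6.29 to 6.84 (median 6.40) in MatSep rats and from 6.10 to 6.52 (median 6.27) in controls, with a difference of 0.20 ± 0.11. Cry1 was the only member in which a control other than replicate 4 fell inside the MatSep range.

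**Figure D1:**
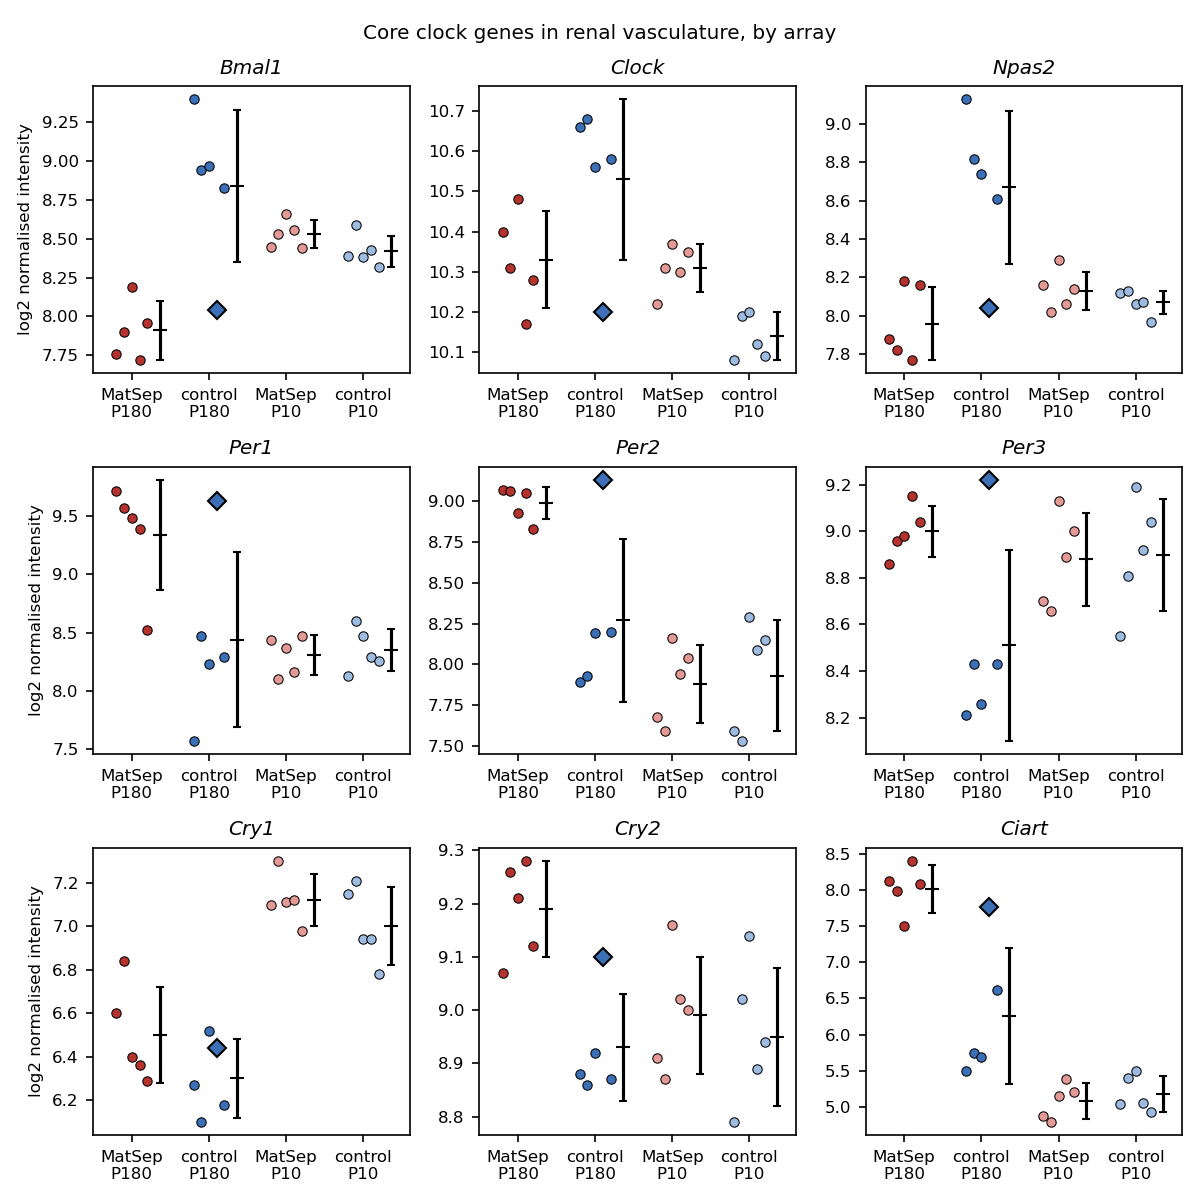
Log2 normalised intensity (y axis) of the 9 core clock genes in each array, by group (x axis). Points are arrays, the large diamond is P180 control replicate 4, and bars to the right give the mean ± SD (n = 5). In Ciart the diamond lies at 7.76, inside the MatSep band of 7.50 to 8.40, while the other P180 controls lie between 5.49 and 6.62.

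In limma over all transcripts, 2 of the 9 members passed an adjusted p of 0.05 at P180, Ciart on the higher and Bmal1 on the lower side, where 0.0324% of the 18511 transcripts passed. Since this contrast chose the members, nothing is read from that count. The median log2 difference was 0.26 over the members and 0.00 over all transcripts. Ranges of the MatSep and control arrays overlapped in all 9 members, where they did not overlap in 0.810% of all transcripts.

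The overlap came down to a single array. P180 control replicate 4 lay inside the MatSep range in 7 members and above it in Per2 and Per3, and it lay outside the range of the other 4 controls in every member but Cry1. Without it, the ranges separated in 8 of the 9 members, all but Cry1, against 2.20% of all transcripts. Since that array was left out for its values in these genes, the separation and the counts without it follow from the choice and are a description too. The log2 differences were then -1.13 ± 0.11 for Bmal1, -0.87 ± 0.10 for Npas2, 2.13 ± 0.20 for Ciart, 1.20 ± 0.20 for Per1, 0.93 ± 0.15 for Per2 and 0.66 ± 0.11 for Per3, and with these sizes the 6 members passed the adjusted p of 0.05, 4 higher and 2 lower, where 0.205% of all transcripts passed, 0.103% in each direction. The other 3 members had differences of -0.29 ± 0.06 (Clock), 0.30 ± 0.07 (Cry2) and 0.23 ± 0.11 (Cry1). The direction of all 9 members was the same with and without it. Leaving out any of 8 other arrays instead left 0 members past the threshold, and leaving out MatSep replicate 3 left 2.

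Within runs of consecutive sample numbers, as the column headings give them, the differences were unequal in size. In samples 1 to 6, with 3 arrays a group, Bmal1 averaged 7.95 in MatSep rats and 9.10 in controls and Ciart averaged 7.87 in MatSep rats and 5.65 in controls. In samples 8 to 11, with 2 arrays a group and control replicate 4 among them, Bmal1 averaged 7.84 in MatSep rats and 8.44 in controls and Ciart averaged 8.24 in MatSep rats and 7.19 in controls. Per1 averaged 8.96 in both groups of that run, against 9.59 in MatSep rats and 8.09 in controls of the first one, and Cry1 differed by 0.01, against 0.32 in the first. The other members had the same sign in both runs.

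**Figure D2:**
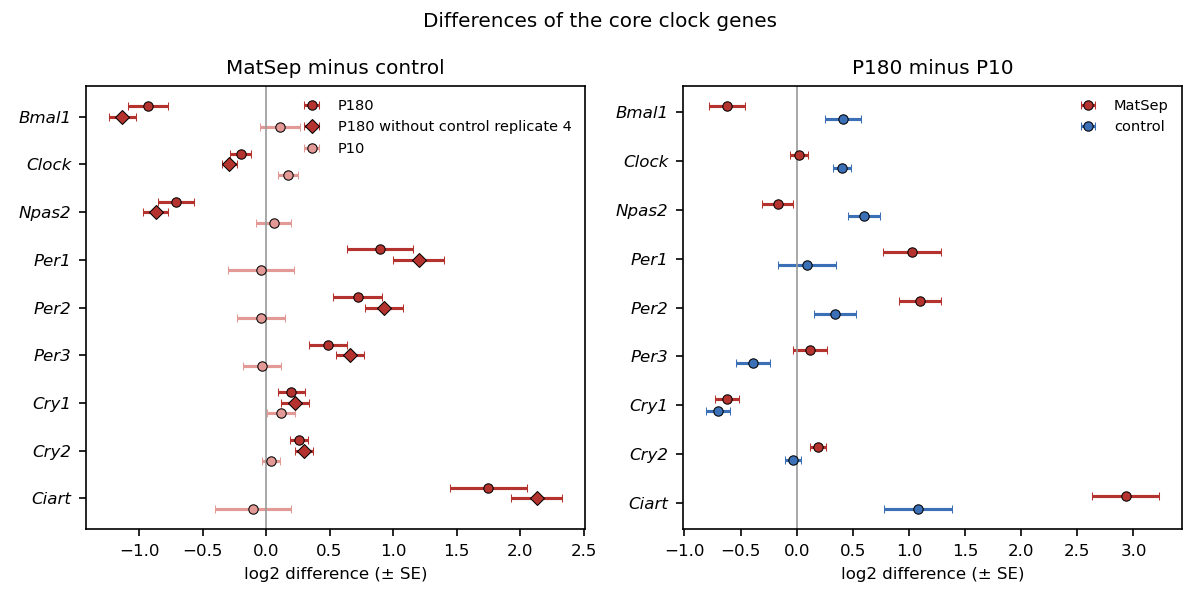
Log2 differences (x axis, with SE) of the 9 members (y axis), MatSep minus control at P180, at P180 without control replicate 4 and at P10 in one panel, and P180 minus P10 in MatSep and in control rats in the other. At P180 Bmal1 stands at -0.93 and Ciart at 1.75, while all 9 members lie between -0.10 and 0.17 at P10.

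Levels of a glucocorticoid-responsive and a fibroblast list are given beside these genes, though the markers within each list differed unequally. The mean log2 intensity of 6 glucocorticoid-responsive genes (Fkbp5, Tsc22d3, Zbtb16, Sgk1, Dusp1 and Per1, itself a member) was 8.59 to 9.41 in P180 MatSep arrays and 8.23 to 9.35 in P180 controls, and the highest control was replicate 4, with the others at 8.23 to 8.81. None of the 6 passed at P180. Fkbp5, Tsc22d3, Zbtb16 and Per1 averaged higher in MatSep rats. Sgk1 averaged 10.39 in MatSep rats and 10.56 in controls, and Dusp1 10.21 and 10.22. Replicate 4, at 10.48 in Sgk1 and 10.27 in Dusp1, lay within the range of the other controls. The mean of 5 fibroblast markers was 9.04 to 9.78 in MatSep arrays and 9.10 to 9.97 in controls, the lowest control again being replicate 4, and none of the 5 passed. Col1a1, Col1a2 and Pdgfra averaged lower in MatSep rats, while Dcn averaged 11.51 against 11.61 in controls and Lum 7.85 against 7.89. The part of these markers in the differences was not tested. In a bulk preparation, fewer cells of a type and less RNA per cell cannot be told apart.

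Beyond the loop, 24 output and feedback genes were listed, of which 18 were measured. At P180, 2 of the 18 passed, both on the higher side, where 0.0324% of all transcripts passed and 0.0162% were higher. They were the D-box factors Dbp and Tef. Dbp had values of 11.76, 11.72, 11.66, 11.66 and 11.37 in MatSep rats, against 9.89, 10.76, 10.78, 11.35 and 10.60 in controls. All MatSep arrays lay above all controls, by a narrow margin over replicate 4. Tef had values of 9.21, 9.01, 8.92, 8.99 and 9.05 in MatSep rats, against 7.95, 8.29, 8.26, 8.93 and 8.47 in controls. The log2 differences were 0.96 ± 0.16 for Dbp and 0.66 ± 0.12 for Tef, and 1.13 ± 0.13 and 0.79 ± 0.08 without replicate 4. These P180 values were known when the list was made and are likewise a description.

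Without control replicate 4, 5 of the 18 passed, all higher in MatSep rats, with Bhlhe41, Usp2 and Wee1 added, where 0.205% of all transcripts passed and 0.103% were higher. The count is a description for the same reasons as above. Usp2, a deubiquitinase with rhythmic expression, averaged 9.18 in MatSep rats and 8.18 in all 5 controls, and its replicate 4 value of 9.11 compared with 7.74 to 8.13 in the other controls. Nr1d1, which encodes REV-ERB alpha and is an E-box target itself, had a difference of 0.17 ± 0.11, and of 0.18 ± 0.12 without replicate 4. It ran from 10.45 to 10.82 (median 10.59) in MatSep rats and from 10.28 to 10.68 (median 10.47) in controls, and replicate 4, at 10.50, was in the middle of the controls. Rora, the activator at ROREs, was at 9.28 in replicate 4, against 9.15 to 9.37 in the other controls.

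At P10, when separation was still under way, the loop did not separate the groups. None of the 9 members passed between MatSep and control pups, where 0.0162% of all transcripts did. The log2 differences ran from -0.10 for Ciart to 0.17 for Clock. Bmal1 had values of 8.45, 8.53, 8.66, 8.56 and 8.44 in MatSep pups, against 8.39, 8.59, 8.38, 8.43 and 8.32 in controls. Ciart had values of 4.87, 4.79, 5.15, 5.39 and 5.20 in MatSep pups, against 5.04, 5.40, 5.49, 5.05 and 4.93 in controls. The groups overlapped in both genes. The differences were 0.11 ± 0.16 for Bmal1 (adjusted p = 0.875) and -0.10 ± 0.30 for Ciart (adjusted p = 0.944). Each SE comes from a spread shared by all 4 groups, P180 controls included, and not from the pups alone.

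Clock was the exception in its ranges, though not in the test. Its values were 10.22, 10.31, 10.37, 10.30 and 10.35 in MatSep pups, against 10.08, 10.19, 10.20, 10.12 and 10.09 in controls. Every MatSep pup was above every control pup, a separation seen in 1.67% of all transcripts. The difference of 0.17 ± 0.08 had an adjusted p of 0.489 in limma, whose spread is shared by all 4 groups. The SD of Clock was 0.06 in either P10 group and 0.20 in P180 controls. With the P10 groups alone, 0 members passed as well. Cell type markers differed on average at P10 too, though none passed. The median log2 difference between MatSep and control pups was 1.76 over 5 adipocyte markers, 0.54 over 4 smooth muscle markers and 0.50 over 5 fibroblast markers, against -0.01 over all transcripts. The mean of the adipocyte markers was 7.70 to 9.25 in MatSep pups and 5.66 to 8.78 in control pups, that of the smooth muscle markers 10.24 to 11.26 and 9.34 to 11.08, and that of the fibroblast markers 11.55 to 12.12 and 10.89 to 11.71. Their part in the separation of Clock was not tested. None of the 18 output and feedback genes passed at P10, where 0.0162% of all transcripts did. As a description, the MatSep minus control difference changed between the ages (P180 minus P10, log2) by -1.03 ± 0.23 for Bmal1 and 1.85 ± 0.43 for Ciart. Of the 9 members 0 passed, as did 0% of all transcripts. Without P180 control replicate 4 this change was -1.23 ± 0.15 for Bmal1 and 2.23 ± 0.28 for Ciart, and 5 members passed (0.227% of all transcripts).

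For Bmal1 and Ciart, spread was smaller at P10 than among P180 controls. The SD of Bmal1 was 0.19 in P180 MatSep rats, 0.49 in P180 controls, 0.09 in P10 MatSep pups and 0.10 in P10 controls. For Ciart it was 0.33 in P180 MatSep rats, 0.94 in P180 controls, 0.25 in P10 MatSep pups and 0.25 in P10 controls. Without replicate 4 the SD of the P180 controls was 0.25 for Bmal1 and 0.50 for Ciart. Not all members had this pattern. The SD of Cry2 was 0.10 in P180 controls, 0.11 in P10 MatSep pups and 0.13 in P10 controls. That of Per3 was 0.41 in P180 controls and 0.11 without replicate 4, against 0.20 in P10 MatSep pups and 0.24 in P10 controls.

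At P10, 3 members differed between runs of sample numbers, a comparison made after the values had been seen. Per2 had values of 8.16, 7.94 and 8.04 in MatSep pups and 8.29, 8.09 and 8.15 in control pups of samples 19 to 24, against 7.68 and 7.59 in MatSep pups and 7.59 and 7.53 in control pups of samples 14 to 17. The runs did not overlap in Per2, whichever group a pup belonged to. Nor did they in the mean of the endothelial markers, at 9.71 to 10.27 in samples 19 to 24 and 9.46 to 9.57 in samples 14 to 17. The means of the other cell type lists overlapped between the runs. The part of these markers in the run differences was not tested. With group in the limma model, Per2 was higher by 0.51 ± 0.07 in samples 19 to 24 (adjusted p = 0.00207), Per3 was higher by 0.35 ± 0.08 (adjusted p = 0.0122) and Cry1 differed by -0.21 ± 0.07 (adjusted p = 0.0442). The other 6 members did not pass, Bmal1 among them at -0.03 ± 0.07. Of all transcripts 19.1% passed between these runs, so 3 of 9 members is read against that share. Among the output genes Btrc, which encodes a ubiquitin ligase subunit that acts on PER, and Nampt, an enzyme of NAD synthesis under clock control, passed as well, with 0.19 ± 0.05 and -0.30 ± 0.06. At P180 no member passed between samples 8 to 11 and samples 1 to 6, where 0.259% of all transcripts did, and Ciart was the member with the largest difference, 0.96 ± 0.26 (adjusted p = 0.170). Without control replicate 4 no member passed either, where 0.0918% of all transcripts did, and the difference of Ciart was 0.60 ± 0.17 (adjusted p = 0.286).

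**Figure D3:**
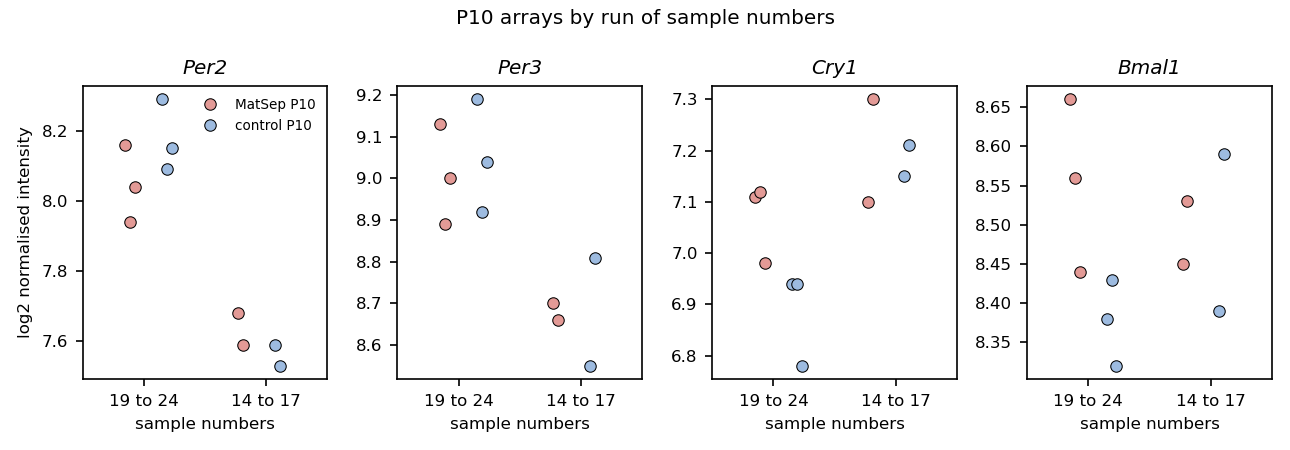
Log2 normalised intensity (y axis) of Per2, Per3, Cry1 and Bmal1 in P10 arrays, by run of sample numbers (x axis) and group (colour). Per2 lies at 7.94 to 8.29 in samples 19 to 24 and at 7.53 to 7.68 in samples 14 to 17 in both groups, while Bmal1 overlaps.

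Between P10 and P180 most members changed, as did a large part of the array. The age comparisons use the same P180 arrays as above, so they share the samples that chose the members. Their counts and adjusted p-values for the members are therefore a description. The values of the 2 treatments are set side by side without a test between them. In MatSep rats 6 of 9 members passed, 4 higher and 2 lower, where 49.6% of all transcripts passed, 27.4% higher and 22.2% lower. The P180 and P10 arrays did not overlap in 5 members (Ciart, Per1, Per2, Bmal1 and Cry1), against 33.9% of all transcripts. In controls 6 of 9 passed as well, 4 higher and 2 lower, where 45.3% of all transcripts passed, 24.7% higher and 20.6% lower. The arrays did not overlap in 2 members (Ciart and Cry1), against 31.3% of all transcripts. For Ciart the margin was minimal, since the lowest P180 control and the highest P10 control both round to 5.49.

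Ciart was higher at P180 in both treatments, by 2.93 ± 0.30 in MatSep rats (adjusted p = 1.0e-07, 5 of 5 arrays) and by 1.08 ± 0.30 in controls (adjusted p = 0.00621). Cry1 was lower at P180 in both, with log2 differences of -0.62 ± 0.11 in MatSep rats (adjusted p = 7.6e-05) and -0.70 ± 0.11 in controls (adjusted p = 2.0e-05). Its P180 arrays, at 6.10 to 6.84, all lay below the P10 arrays of the same treatment, at 6.78 to 7.30.

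Among the activators, Bmal1 and Npas2 had opposite signs in the 2 treatments. Bmal1 was lower at P180 in MatSep rats, with a log2 difference of -0.62 ± 0.16 (adjusted p = 0.00300, no overlap), and higher at P180 in controls, by 0.41 ± 0.16 (adjusted p = 0.0405, 4 of 5 arrays). The control difference was not stable, at 0.27 (adjusted p = 0.137) without P180 control replicate 1, and its adjusted p was 0.104 with the compared groups alone. Npas2 was higher at P180 in controls by 0.60 ± 0.14 (adjusted p = 0.00132), with a difference of -0.17 ± 0.14 in MatSep rats (adjusted p = 0.300). Clock was higher at P180 in controls by 0.40 ± 0.08 (adjusted p = 0.000361), with a difference of 0.02 ± 0.08 in MatSep rats (adjusted p = 0.839).

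Per1 and Per2 passed in MatSep rats, and Per3 in controls. Per1 and Per2 were higher at P180 in MatSep rats, by 1.03 ± 0.26 (adjusted p = 0.00299) and 1.10 ± 0.19 (adjusted p = 8.2e-05), with differences of 0.09 ± 0.26 and 0.34 ± 0.19 in controls that did not pass. Per3 was lower at P180 in controls, with a difference of -0.39 ± 0.15 (adjusted p = 0.0426), and had 0.12 ± 0.15 in MatSep rats. The Per3 call was lost with the compared groups alone (adjusted p = 0.101) and without P180 control replicate 1 (adjusted p = 0.116). Cry2 was higher at P180 in MatSep rats by 0.19 ± 0.07 (adjusted p = 0.0363), with -0.03 ± 0.07 in controls.

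Without P180 control replicate 4 the age differences of the controls lay farther from those of MatSep rats. They were then 0.61 ± 0.11 for Bmal1, 0.75 ± 0.10 for Npas2, 0.48 ± 0.06 for Clock, 0.71 ± 0.20 for Ciart, -0.57 ± 0.11 for Per3 and -0.74 ± 0.11 for Cry1. Per1, Per2 and Cry2 had -0.21 ± 0.20, 0.13 ± 0.15 and -0.07 ± 0.07, and again 6 members passed (43.2% of all transcripts).

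Most output and feedback genes differed with age. In MatSep rats 11 of 18 passed on the higher and 6 on the lower side (27.4% and 22.2% of all transcripts), and in controls 8 on the higher and 7 on the lower (24.7% and 20.6%). Nr1d1 had the largest difference in either treatment, 2.26 ± 0.11 in MatSep rats (adjusted p = 1.3e-12) and 2.30 ± 0.11 in controls (adjusted p = 8.7e-13), a 4.80-fold and a 4.92-fold higher level at P180. Its arrays ran from 10.45 to 10.82 and from 10.28 to 10.68 at P180 in MatSep rats and controls, against 7.82 to 8.54 in all pups. Dbp was higher at P180 by 1.57 ± 0.16 in MatSep rats and by 0.68 ± 0.16 in controls, and Rora was higher by 0.79 ± 0.06 in MatSep rats and by 0.84 ± 0.06 in controls. On the lower side were Timeless, which takes part in DNA replication and the damage response (-1.39 ± 0.10 in MatSep rats and -1.16 ± 0.10 in controls), and the casein kinase gene Csnk1e, whose product phosphorylates PER proteins (-0.72 ± 0.07 in MatSep rats and -0.58 ± 0.07 in controls).

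Cell type markers differed with age too. All 5 fibroblast markers were lower at P180 in both treatments, with mean log2 intensities of 9.04 to 9.78 in P180 MatSep arrays and 11.55 to 12.12 in P10 MatSep arrays, and of 9.10 to 9.97 in P180 controls and 10.89 to 11.71 in P10 controls. Of 5 macrophage markers 3 were higher and 1 lower at P180 in either treatment. Of 5 adipocyte markers 4 were lower and 0 higher in MatSep rats, and 0 lower and 1 higher in controls, with median log2 differences of -1.64 and -0.02. Of 4 smooth muscle markers 2 were higher in MatSep rats and 4 in controls. Their part in the age differences of the clock genes was not tested.

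Single arrays were placed against each other with a clock index, the mean deviation of Bmal1, Npas2 and Clock from the control mean of the same age, minus the mean deviation of Per1, Per2, Per3 and Ciart. A negative index means low activators and high repressors. It is built from the genes that chose the list, so it serves as a description. P180 MatSep arrays had an index of -1.74, -1.69, -1.25, -1.92 and -1.29, against 0.96, 0.36, 0.35, -1.65 and -0.02 in P180 controls. The 5 MatSep arrays and control replicate 4 lay between -1.92 and -1.25, and the other 4 controls lay between -0.02 and 0.96. At P10 the index was 0.23, 0.38, 0.12, 0.09 and 0.01 in MatSep pups, against 0.25, 0.10, -0.26, 0.00 and -0.09 in controls. The P10 arrays of both groups overlapped and stayed within 0.38 of the control mean.

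**Figure D4:**
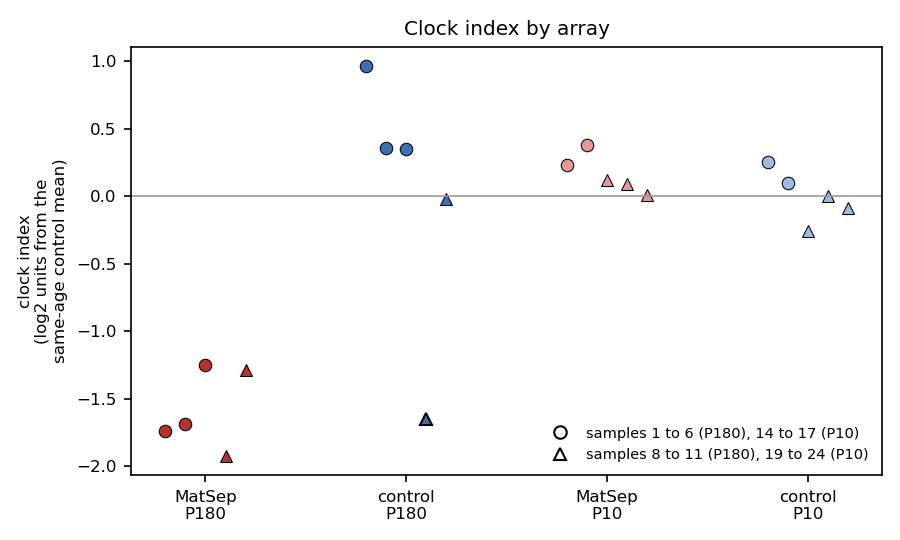
Clock index of each array (y axis, log2 units from the control mean of the same age) by group (x axis), with symbols for runs of sample numbers and a heavy outline on P180 control replicate 4. The 5 P180 MatSep arrays lie between -1.92 and -1.25, and control replicate 4, at -1.65, is among them.

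Rats of one age were also set against each other within their groups. Deviations from the group mean, which do not hold the difference between the groups, were correlated between Bmal1 and each of the other 8 members over the 10 arrays of an age. These pairs share Bmal1 and the arrays. Since single P180 arrays were seen when the members were chosen, the P180 correlations are a description without a test. Pearson's r with Bmal1 was 0.96 for Npas2 and 0.86 for Clock, the activator partners, and -0.94 for Ciart, -0.92 for Per2, -0.88 for Per3 and -0.82 for Per1, on the repressor side. It was -0.59 for Cry2 and -0.24 for Cry1. Spearman's rho was 0.92 for Npas2, 0.71 for Clock, -0.96 for Ciart, -0.77 for Per2, -0.61 for Per3 and -0.65 for Per1.

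These values rested in part on control replicate 4. Without it, r was 0.90 for Npas2 and -0.80 for Ciart, while it was 0.54 for Clock, -0.68 for Per2, -0.48 for Per3 and -0.52 for Per1. Without the 2 arrays farthest from the median of Bmal1, control replicates 1 and 3, r was 0.94 for Npas2 and -0.94 for Ciart. With deviations taken from the mean of group and run, r was 0.94 for Npas2 and -0.95 for Ciart. At P10, r lay between -0.23 for Per2 and 0.59 for Cry1, and none of the 8 pairs passed an exact 2-sided permutation test within groups. The exact permutation p was 0.095 for Cry1 and 0.286 for Ciart (r = 0.40), with adjusted p of 0.403 and 0.472.

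**Figure D5:**
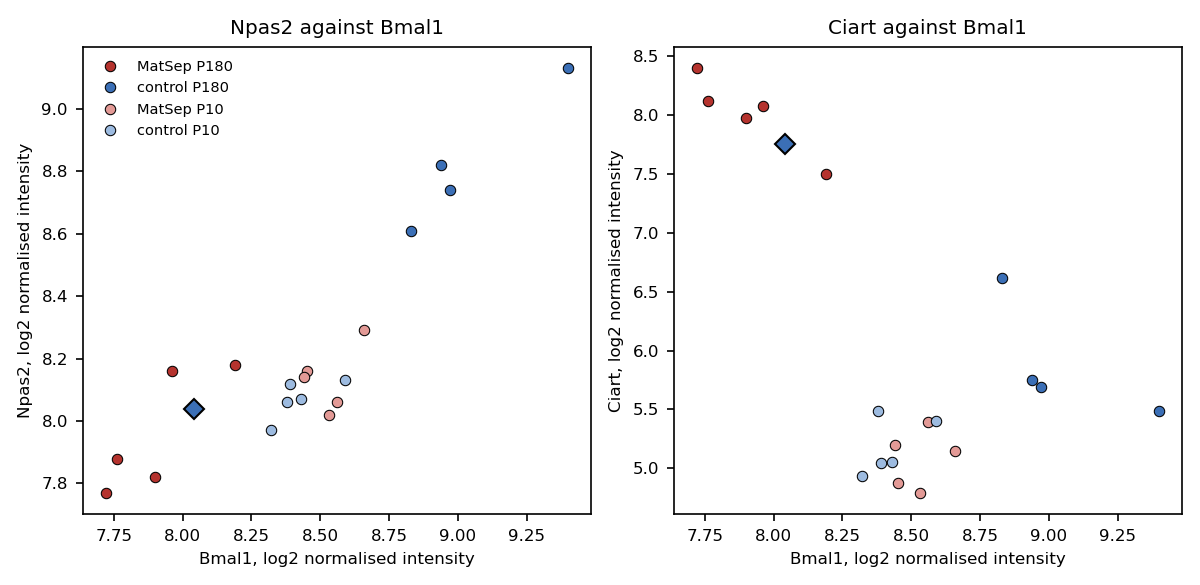
Npas2 and Ciart (y axes) against Bmal1 (x axis), as log2 normalised intensities, 1 point per array, with P180 control replicate 4 as a diamond. Among P180 arrays Npas2 goes up and Ciart goes down with Bmal1 (within-group r = 0.96 and -0.94, n = 10), and the P10 arrays form a separate cloud with Ciart at 4.79 to 5.49.

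Across the whole array, the transcripts most like Bmal1 were sought among 14991 others by the correlation of deviations from the group mean over all 20 arrays. The 5 highest were Npas2 (r = 0.93), Creb3l1 (0.85), Rcn1 (0.84), Dtx4 (0.84) and Zfp362 (0.84), and Clock ranked 6 (0.83). The 5 lowest were Usp2 (-0.89), Tef (-0.88), Epm2a (-0.85), Zbtb16 (-0.85) and Ubr7 (-0.83). Of the clock genes, the activator partner Npas2 stood at one end, and Usp2 and Tef at the other. The other genes among the 5 highest and 5 lowest were not on the clock lists. Nr1d1 had an r of -0.05. These are descriptions over arrays that share 4 group means. Without P180 control replicate 4, r was 0.83 for Npas2, 0.54 for Clock, -0.68 for Usp2 and -0.67 for Tef. Ubr7, at -0.75, was then lower than Usp2 and Tef.

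For Ciart the 5 highest were Zbtb16 (r = 0.93), Npy (0.86), Dbndd1 (0.85), Ccdc148 (0.85) and Abca5 (0.84), and the 5 lowest were Irf2bpl (-0.88), Erf (-0.86), Cxxc5 (-0.86), Tmem201 (-0.85) and Gna12 (-0.84). Zbtb16, a transcription factor gene induced by glucocorticoids, had values of 8.28, 7.74, 6.84, 7.96 and 7.06 in P180 MatSep rats, against 5.70, 6.21, 6.02, 8.67 and 7.31 in P180 controls. Control replicate 4 was the highest P180 array of this gene. Without that array the r with Ciart was 0.82 for Zbtb16, 0.80 for Npy and -0.87 for Erf.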

How the data were processed

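The authors deposited linear-scale intensities for each transcript, already normalised between the 20 arrays. RMA and Partek are named in the submitters' processing notes without a version. The log2 of these intensities was analysed in R 4.3.3 with limma 3.58.1, which fitted 1 mean per group over 20 arrays (16 residual degrees of freedom) to the 18511 transcripts with 1 gene symbol. P-values were adjusted by Benjamini-Hochberg over all of these, at 0.05. Of 36685 transcripts, 575 have several symbols and 17599 have none listed. Groups came from the labels, with 5 arrays each. The labels give no litter, and separate rats per array are taken from the methods. Precision is limited by the number of arrays.

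The members and lists were chosen with earlier results of these data known. Genes named are the 9 members, output genes that pass in a contrast with Dbp and Nr1d1, and the 5 highest and 5 lowest correlations with Bmal1 and with Ciart among transcripts of mean log2 of at least 5. Of 24 listed output and feedback genes 18 were analysed, and the other 6 were not analysed here. Correlations were computed with Python 3.11.15 and numpy 2.4.6 over 14400 within-group arrangements, and figures were drawn with matplotlib 3.10.9. The value table of the series, the same intensities at 2 decimals, was an alternative. The deposited tables of the authors' own comparisons (fold changes and p-values) were not used. The limma fit and the permutation test were tested on simulated data. The alternatives are given in the closing section. The comparison of runs of sample numbers was added after the data were seen.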

Additional observations from a re-analysis of the deposited data

Results flagged for a closer look

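In 36 sets of 5 arrays (9 members in 4 groups), 5 held an array whose gap to its nearest neighbour exceeded Dixon's critical value of 0.71 times the range, where chance gives about 1 set in 20. The members vary together and were chosen with these arrays seen, so the sets are not independent and the count is a description. P180 control replicate 4 accounted for 4 of them. Its log2 intensity was 10.20 in Clock, against 10.56 to 10.68 in the other 4 controls. It was 9.13 in Per2, against 7.89 to 8.20. It was 9.22 in Per3, against 8.21 to 8.43, and 9.10 in Cry2, against 8.86 to 8.92. The remaining one was MatSep replicate 5 at P180 in Per1, at 8.52, against 9.39 to 9.72 in the other MatSep arrays. Over all transcripts, P180 control replicate 4 was such an array in 1.58%, and the other 19 arrays in 0.438% to 3.34% of them.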

How the results depend on the processing

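At P180, 2 members and 2 output genes passed. With the compared groups alone, without moderation of the variance, over all transcripts of the table and in samples 8 to 11 alone, 0 members and 0 output genes passed. In samples 1 to 6 alone it was 1 member and 0 output genes, after a further quantile normalisation 1 output gene, and with replicate numbers as a block 0 output genes. Leaving out each array gave 0 to 6 members and 0 to 5 output genes, with the highest counts without control replicate 4, and 0 of 9 members without control replicate 1, 2, 3 or 5 or MatSep replicate 1, 2, 4 or 5. For the change between the ages in MatSep minus control, array weights gave 3 members and 2 output genes, and runs of sample numbers as a block 2 members. There, leaving out each array gave 0 to 5 members and 0 to 3 output genes. At P10 array weights let 1 output gene pass. The count of P180 correlations with Bmal1 past an adjusted exact permutation p of 0.05, a description, was 6. It became 2 without the 2 farthest arrays of Bmal1, 2 with deviations from the mean of group and run, and 1 to 6 on leaving out each array. The age counts of members were 4 to 6 in controls and 5 to 6 in MatSep rats on leaving out each array, and 4 in controls with the compared groups alone, without moderation or over all transcripts. The cause of these changes was not tested. The 1312 values under the alternatives include counts and index values, for which no change of sign was scored. Among the single-gene values, 82 lost a call and 6 gained one. The sign changed in 0 with a call in either setting, and in 33 with no call in either.

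Replicate numbers were not taken to pair the rats, since not every pair correlated over 0.1. The correlation of same-numbered MatSep and control arrays was -0.21 to 0.21 at P180 and 0.09 to 0.61 at P10, where 4 of 5 numbers matched best with their own. With the block, 2 members passed at P180 and 6 in either age comparison, as without it. Dim transcripts limit Ciart at P10, whose intensities are near the filter of 5 used in one alternative, and 5 arrays a group limit all counts.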
